A study of Mus musculus with 7 samples.

Results

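Trp53 and 9 of its known target genes (Mdm2, Bax, Bbc3, Zmat3, Ccng1, Gdf15, Fas, Eda2r and Phlda3) were followed in mouse mammary tumours and control mammary glands. The 10 genes were picked by name, and all 10 were found among the 50600 genes counted in every library. RNA was sequenced from 4 tumours of mice carrying an ECD transgene and from 3 control glands. The tumours, numbered as in the labels, were 2 adenosquamous carcinomas (tumours 1a and 1b), a spindle cell carcinoma (tumour 3) and a papillary carcinoma (tumour 4). The promoter and species of the transgene, the strain, the genotype of the control mice and all ages are not given in the labels used here. All libraries are described as independent samples, yet the names 1a and 1b leave unclear whether those tumours grew in 1 animal. Each was counted as a replicate, and if they did share an animal, p-values partly measure the spread within it. RNA came from mammary glands as such or from a piece of each tumour's centre.

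Trp53 encodes p53, a transcription factor that is held at a low level by rapid breakdown and that accumulates after DNA damage or oncogene activity. It then switches on genes that stop the cell cycle, repair DNA or kill the cell, and it switches on Mdm2, whose product marks p53 for breakdown. Because p53 is controlled mainly as a protein, its targets are often read as a sign of its activity, and in mouse mammary epithelium its loss is a well-known step towards tumours. The transcripts measured here do not show the protein or whether the gene is mutated.

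Total counts ran from 5420572 to 28638194 in the tumours and from 5148436 to 35631302 in the glands. Genes of mitochondrial DNA took 18.34% to 32.61% of counts in tumours and 48.36% to 64.83% in glands, and levels are given as CPM, a gene's share of a library's total after TMM scaling, set to a common total for all libraries. After that scaling, 1 count was worth 0.354 CPM in gland 1 and at most 0.136 CPM in any other library. Summed epithelial markers were at 1230 to 1810 CPM in tumours and 205 to 336 CPM in glands. Summed adipocyte markers were at 25 to 557 CPM in tumours and 3770 to 8150 CPM in glands. The 10 skeletal muscle markers summed to 2.54 to 272 CPM in tumours, to 25.1 CPM in gland 2 and to 16100 and 32200 CPM in glands 1 and 3. Summed macrophage markers were at 116 to 2510 CPM in tumours and 105 to 274 CPM in glands. In RNA of whole tissue, fewer cells of a type and less RNA per cell cannot be told apart. In gland 1 the epithelial marker Cldn4 was at 0, and in the spindle cell tumour the adipocyte markers Adipoq, Cidec, Retn and Cfd and the muscle markers Myh1 and Tnnt3 were at 0. In the test described below, 3.9% of all genes rose and 4.57% fell. Of 10 adipocyte markers 0 rose and 8 fell, and of 9 epithelial markers 2 rose and 0 fell. The part of these cell types in the results was not tested.

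Promoter sequence (RefSeq, build GRCm38.p6) was at hand for 9 of the 10 genes, in 12 windows of 250 bases before to 50 after a transcription start. Zmat3 had no entry. The windows were searched on both strands for the p53 decamer, the 10-base unit that p53 binds as a pair. It was present in the windows of 4 genes, Trp53, Mdm2, Bax and Ccng1, while 8.36% of 32851 mouse promoter windows held it. A pair with at most 13 bases between was in none of the 12 windows and in 0.073% of all windows. The windows with a match are shown because the 4 genes that hold one did not share a pattern: Trp53 and Bax lay above all glands in the tumours, Ccng1 lay below and Mdm2 overlapped. Capitals mark the decamer.
Trp53 (chr11:69580109-69580408, plus strand): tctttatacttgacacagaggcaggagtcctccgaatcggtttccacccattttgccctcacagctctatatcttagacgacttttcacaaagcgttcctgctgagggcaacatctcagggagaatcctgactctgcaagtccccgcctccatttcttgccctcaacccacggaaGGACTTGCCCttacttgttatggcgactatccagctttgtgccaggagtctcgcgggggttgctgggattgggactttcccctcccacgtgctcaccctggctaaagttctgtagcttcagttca
Mdm2 (chr10:117710709-117711008, minus strand): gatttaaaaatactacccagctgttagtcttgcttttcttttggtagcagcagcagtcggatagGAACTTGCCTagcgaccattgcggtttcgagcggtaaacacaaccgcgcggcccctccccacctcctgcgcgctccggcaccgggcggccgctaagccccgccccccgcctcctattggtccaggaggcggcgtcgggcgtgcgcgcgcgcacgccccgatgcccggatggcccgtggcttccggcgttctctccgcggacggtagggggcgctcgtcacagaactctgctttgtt
Bax (chr7:45466849-45467148, minus strand): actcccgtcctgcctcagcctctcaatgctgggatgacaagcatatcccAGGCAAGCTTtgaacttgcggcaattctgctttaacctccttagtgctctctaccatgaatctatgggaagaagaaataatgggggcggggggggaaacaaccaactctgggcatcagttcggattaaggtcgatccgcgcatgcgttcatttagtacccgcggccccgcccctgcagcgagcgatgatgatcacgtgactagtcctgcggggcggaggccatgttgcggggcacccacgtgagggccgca
Ccng1 (chr11:40755237-40755536, minus strand): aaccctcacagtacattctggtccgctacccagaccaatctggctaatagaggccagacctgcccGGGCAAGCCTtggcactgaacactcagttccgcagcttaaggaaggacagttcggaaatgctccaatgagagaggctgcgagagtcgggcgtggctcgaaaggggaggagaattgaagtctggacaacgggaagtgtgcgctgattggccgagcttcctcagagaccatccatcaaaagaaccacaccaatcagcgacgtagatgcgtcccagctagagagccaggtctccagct
A match describes the letters in the window and does not show binding, and many known p53 sites lie outside such windows, for example in first introns.

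The members did not move as 1 block. The apoptosis gene Bax and the RNA-binding gene Zmat3 were higher in tumours, 5.04-fold and 3.34-fold, and passed the test across all genes. Trp53 and the apoptosis gene Bbc3 were also above every gland in all 4 tumours, without passing. Ccng1 was below every gland in all 4 tumours, also without passing. Mdm2, Fas, Eda2r and Phlda3 overlapped between tumours and glands. Gdf15 had too few counts to be tested.

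**Figure D1:**
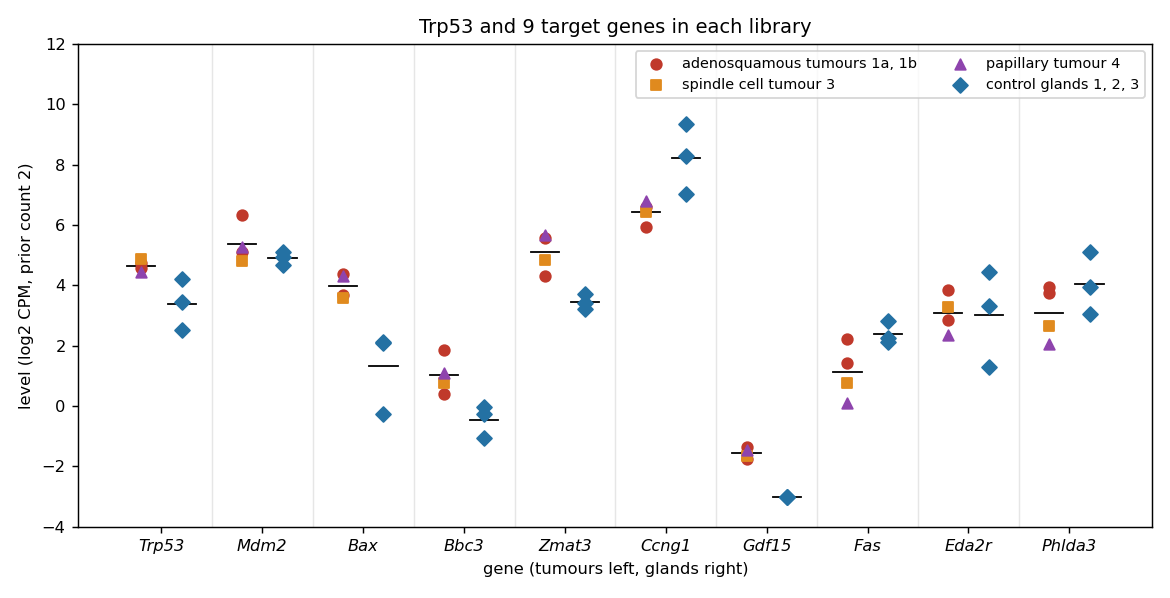
Level of each gene in each library as log2 CPM (prior count 2), with tumours left and glands right of each gene name and a bar at the mean of each side. All tumours lie above all glands for Trp53, Bax, Bbc3 and Zmat3 and below all glands for Ccng1. For Gdf15 the tumour points also lie above, but they rest on 2 to 7 counts. The glands sit at -3.02 for Gdf15 because they hold no count. The 95% counting interval of gland 1 for Gdf15 reaches 1.3 CPM, above the level of each tumour.

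The test was edgeR's quasi-likelihood test on all 7 libraries with Benjamini-Hochberg adjustment over 14149 genes, with adjusted p under 0.05 counted as passing. Of the 10 members, 9 had enough counts to be tested. Of these, 2 passed as higher and 0 as lower. Among all genes tested, 8.47% passed, 3.9% as higher and 4.57% as lower. At unadjusted p under 0.05 there were 5 of the 9 members, 4 higher and 1 lower, against 28.9% of all genes, 15.8% higher and 13.1% lower. The median log2 fold change was 0.59 over the 9 members and 0.12 over all genes tested. All 4 tumours were above all 3 glands for 4 of the 9 tested members and for 16.3% of all genes. All 4 were below for 1 of the 9 and for 13.2% of all genes. Bbc3 is 1 of the 4 higher members at unadjusted p and 1 of the 4 above every gland. So low in glands, Bbc3 entered the test through the tumours, where it was high. Its place in these counts thus adds nothing to its levels.

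**Figure D2:**
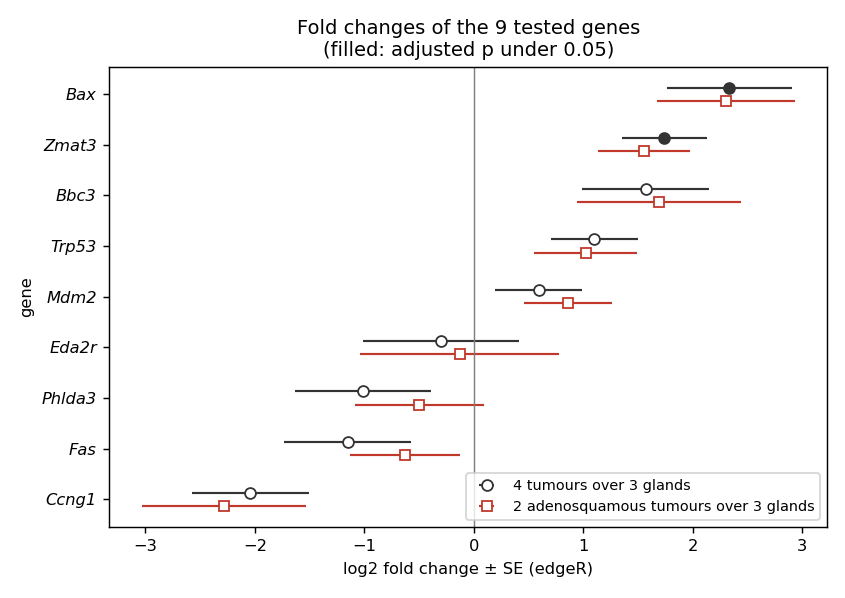
Log2 fold change with its SE from edgeR for the 9 tested genes, for all 4 tumours over the 3 glands (circles) and for the 2 adenosquamous tumours over the 3 glands (squares). Only Bax and Zmat3 are filled (adjusted p under 0.05), at 2.33 and 1.74 in the comparison of all tumours, and Ccng1 lies lowest in both comparisons.

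Trp53 (ENSMUSG00000059552, chromosome 11, 69580359 to 69591873, GRCm38) was at 23.5 and 26.4 CPM in adenosquamous tumours 1a and 1b, 29.3 CPM in the spindle cell tumour and 21.9 CPM in the papillary tumour, against 5.66, 18.4 and 10.8 CPM in glands 1, 2 and 3. The tumours lay close together, within 0.42 on the log2 scale, while the glands spread over 1.68. In order of level the spindle cell tumour was highest, then tumours 1b, 1a and the papillary tumour, then glands 2, 3 and 1. The 95% counting intervals of neighbouring tumours overlapped, whereas the papillary tumour's interval began at 20.2 CPM and that of gland 2 ended at 19.9 CPM. The intervals of the 3 glands did not overlap. The difference did not pass (log2 1.10, SE 0.40, adjusted p = 0.122 in edgeR). It was 0.39 with gland 2 as the only control, and DESeq2 called it (adjusted p = 0.042). The processed pseudogene Trp53-ps on chromosome 17 held 0 counts in every library. The genes whose log2 CPM followed that of Trp53 most closely over the 7 libraries, among 7596 genes with an average of at least 3, were Tomm40 (Pearson r = 0.991), Wasf2 (0.985), Nup62 (0.981) and Hmg20b (0.98). These are descriptions, since the genes share the libraries and the split between tumours and glands.

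Mdm2 (ENSMUSG00000020184, chromosome 10, 117688875 to 117710758), the feedback inhibitor of p53, was at 34.6 and 79.7 CPM in tumours 1a and 1b, 27.8 CPM in the spindle cell tumour and 38.8 CPM in the papillary tumour, against 30.4, 25.6 and 34.3 CPM in glands 1, 2 and 3. Tumour 1b stood above all other libraries, and the spindle cell tumour lay within the glands' range. The difference did not pass (log2 0.59, SE 0.40, adjusted p = 0.358 in edgeR). Mdm4, a relative of Mdm2 that restrains p53 without marking it for breakdown, was at 51.8, 101, 96.9 and 86.8 CPM in tumours 1a, 1b, 3 and 4 and at 149, 124 and 106 CPM in glands 1, 2 and 3. It lay below every gland in all 4 tumours, in tumour 1b only just, and the difference did not pass (log2 -0.58, SE 0.30, adjusted p = 0.236 in edgeR). The ratio of Mdm2 to Mdm4 counts within a library does not depend on scaling. Its log2 value was -0.58, -0.34, -1.80 and -1.16 in tumours 1a, 1b, 3 and 4 and -2.29, -2.27 and -1.63 in glands 1, 2 and 3. The spindle cell tumour thus lay within the range of the glands, and the other tumours lay above it.

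Bax (ENSMUSG00000003873, chromosome 7, 45461697 to 45466898) encodes a protein that opens the outer mitochondrial membrane in apoptosis. It was at 12.7 and 20.5 CPM in tumours 1a and 1b, 11.7 CPM in the spindle cell tumour and 19.7 CPM in the papillary tumour, against 0.707, 4.13 and 4.22 CPM in glands 1, 2 and 3. The lowest tumour was 1.45 log2 units above the highest gland. Gland 1 held only 2 counts of Bax, so its level is known to no better than 0.0857 to 2.56 CPM (exact 95% Poisson interval, counting error only). Tumours averaged 16.2 ± 4.59 CPM (SD, n = 4) and glands 3.02 ± 2.00 CPM (SD, n = 3), a rise of 2.33 on the log2 scale (SE 0.57, adjusted p = 0.048 in edgeR). The size of the rise was 1.96 without gland 1 and 1.91 with gland 2 as the only control, but the call was lost when any 1 of the 7 libraries was left out (adjusted p = 0.0621 to 0.13). Exons of Bax share 192 bases with the gene model Gm45808 on the same strand, which held at most 1.32 counts in any library.

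Bbc3 (ENSMUSG00000002083, chromosome 7, 16308393 to 16318205), which encodes the pro-apoptotic protein PUMA, was at 1.19 and 3.54 CPM in tumours 1a and 1b, 1.58 CPM in the spindle cell tumour and 2.02 CPM in the papillary tumour, against 0.354, 0.851 and 0.711 CPM in glands 1, 2 and 3. These levels rest on 14 to 58 counts in tumours and 1 to 27 counts in glands, and the interval of tumour 1a (0.651 to 2.00 CPM) overlapped that of gland 2 (0.561 to 1.24 CPM). So low in glands, Bbc3 entered the test through the tumours, where it was high. The difference did not pass (log2 1.57, SE 0.58, adjusted p = 0.126 in edgeR).

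The ratio of Bax to genes that oppose it was higher in every tumour than in every gland. Against Bcl2, the log2 ratio of counts was -1.09, -0.55, 0.32 and -0.47 in tumours 1a, 1b, 3 and 4 and -5.27, -3.61 and -2.45 in glands 1, 2 and 3. Against Bcl2l1, which encodes BCL-XL, it was -0.57, -1.35, -0.50 and -1.28 in the tumours and -4.25, -2.13 and -2.73 in the glands. Neither Bcl2 (log2 -0.62, adjusted p = 0.394 in edgeR) nor Bcl2l1 (log2 0.69, adjusted p = 0.386) passed on its own. The ratios are a description, without a test. They are not corrected for transcript length, so they compare libraries and not the amounts of the 2 transcripts.

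**Figure D3:**
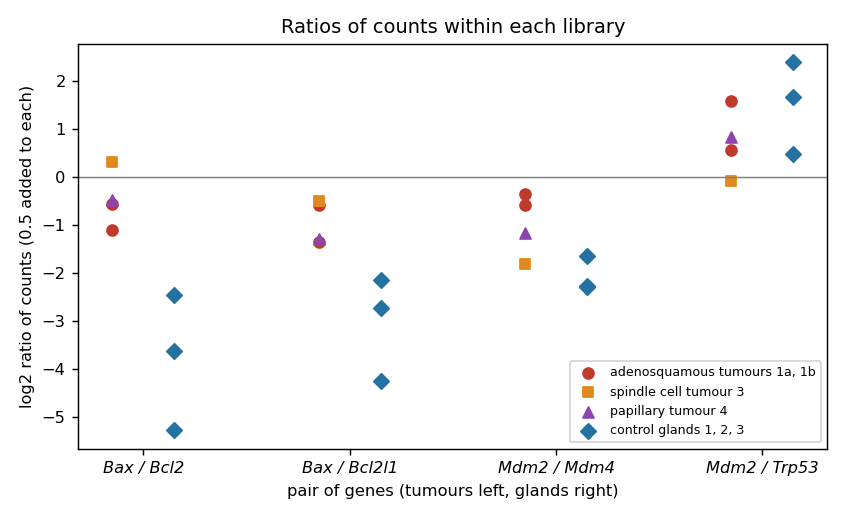
Log2 ratio of counts of 2 genes within a library, with 0.5 added to each count, tumours left and glands right of each pair. For Bax over Bcl2 and Bax over Bcl2l1 the tumours (-1.35 to 0.32 over both pairs) lie above the glands (-5.27 to -2.13), while for Mdm2 over Mdm4 and Mdm2 over Trp53 the sides overlap.

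Zmat3 (ENSMUSG00000027663, chromosome 3, 32334792 to 32366014) encodes a zinc finger RNA-binding protein that acts in tumour suppression by p53 in mice. It was at 19.7 and 47.6 CPM in tumours 1a and 1b, 28.4 CPM in the spindle cell tumour and 50.9 CPM in the papillary tumour, against 9.20, 10.7 and 12.9 CPM in glands 1, 2 and 3. The glands differed little, by 0.48 on the log2 scale, and the lowest tumour, 1a, was 0.61 above the highest gland. Tumours averaged 36.7 ± 15 CPM (SD, n = 4) and glands 10.9 ± 1.86 CPM (SD, n = 3), a rise of 1.74 on the log2 scale (SE 0.39, adjusted p = 0.0392 in edgeR). Its size was 1.48 to 1.98 when 1 library was left out, with the call held only without tumour 1a (adjusted p = 0.0275) and otherwise lost (0.0542 to 0.127).

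Ccng1 (ENSMUSG00000020326, chromosome 11, 40748552 to 40755311) encodes cyclin G1, which helps to activate Mdm2. It was at 61.2 and 96.7 CPM in tumours 1a and 1b, 87.0 CPM in the spindle cell tumour and 112 CPM in the papillary tumour, against 312, 130 and 658 CPM in glands 1, 2 and 3. All 4 tumours lay below all 3 glands, but the papillary tumour lay only 0.21 log2 units under gland 2. Glands 1 and 3, the high ones, were also the glands with skeletal muscle transcripts, at 16100 and 32200 summed CPM, against 25.1 CPM in gland 2. Of the 10 muscle markers, 0 passed in edgeR after adjustment. All 10 were lower in tumours with an unadjusted p below 0.05, against 13.1% of all genes. The part of muscle in this difference was not tested. Over all libraries the difference just missed the threshold (log2 -2.04, SE 0.53, adjusted p = 0.0562 in edgeR), while DESeq2 called it (log2 -2.07, adjusted p = 0.00227). It passed without gland 2 (log2 -2.44, adjusted p = 0.0346), was -1.3 without gland 3 and was -0.60 (adjusted p = 0.707) with gland 2 as the only control.

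**Figure D4:**
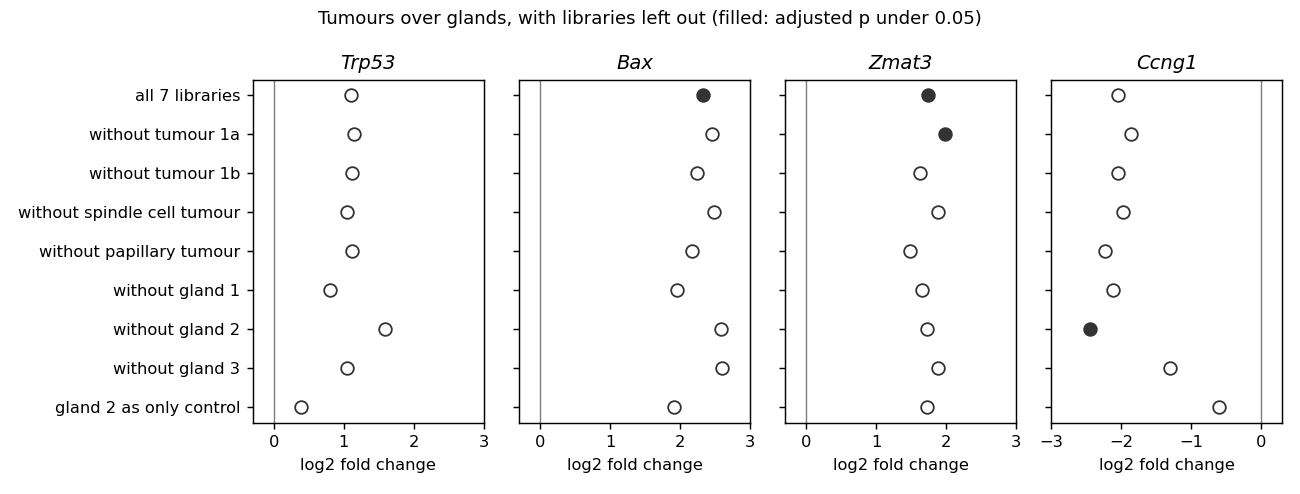
Log2 fold change of tumours over glands for 4 genes, with all 7 libraries, with each library left out, and with gland 2 as the only control; filled points have an adjusted p under 0.05. The values of Bax stay between 1.91 and 2.60 and those of Zmat3 between 1.48 and 1.98, while Trp53 and Ccng1 are nearest to 0, at 0.39 and -0.60, with gland 2 as the only control.

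Gdf15 (ENSMUSG00000038508, chromosome 8, 70629393 to 70632456), a secreted stress factor that acts on the brain through the receptor gene Gfral, was barely detected. It had 2, 2, 2 and 7 counts in tumours 1a, 1b, 3 and 4 and 0 counts in every gland. Pooled over the group, tumours were at 0.224 CPM, 4.16-fold the 0.0539 CPM that a floor of 3 counts over the glands allows. This ratio leaves out the counting error of the 13 tumour counts, so it is not a lower bound. The shallow gland 1 alone would allow up to 1.06 CPM at 3 counts, above each tumour's level. Gfral held 0 counts in every library.

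The death receptor Fas (ENSMUSG00000024778, chromosome 19, 34290666 to 34327772) was at 4.51 and 2.58 CPM in tumours 1a and 1b, 1.58 CPM in the spindle cell tumour and 0.941 CPM in the papillary tumour, against 4.6, 4.29 and 6.92 CPM in glands 1, 2 and 3. Tumour 1a lay within the glands' range and the other 3 tumours below it. Over all tumours the difference did not pass (log2 -1.15, SE 0.58, adjusted p = 0.231 in edgeR). Its ligand gene Fasl was too low to be tested, with 0 to 5 counts in tumours and 3 to 29 counts in glands. Summed lymphocyte markers were high in tumour 1a (101 CPM) and gland 2 (173 CPM) and at 3.90 to 8.49 CPM in the other libraries. Their part in the level of Fas was not tested.

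Eda2r (ENSMUSG00000034457, chromosome X, 97333840 to 97377216), a receptor for ectodysplasin A2, was at 7.06 and 14.4 CPM in tumours 1a and 1b, 9.56 CPM in the spindle cell tumour and 4.98 CPM in the papillary tumour, against 21.9, 2.30 and 9.81 CPM in glands 1, 2 and 3. The glands spread over 3.19 log2 units, more than for any other member, and all tumours lay inside their range. The 2 glands with muscle transcripts were again the higher ones, and this link was not tested. The difference did not pass (log2 -0.30, SE 0.71, adjusted p = 0.807 in edgeR), and its sign turned to 0.58 without gland 1, to 0.50 in limma-voom and to 1.89 with gland 2 as the only control.

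Phlda3 (ENSMUSG00000041801, chromosome 1, 135766119 to 135769136), an inhibitor of the growth kinase AKT, was at 15.2 and 13.3 CPM in tumours 1a and 1b, 6.11 CPM in the spindle cell tumour and 4.04 CPM in the papillary tumour, against 8.13, 34.3 and 15.1 CPM in glands 1, 2 and 3. Both adenosquamous tumours lay within the glands' range, and the spindle cell and papillary tumours lay below it. The difference did not pass (log2 -1.01, SE 0.62, adjusted p = 0.318 in edgeR). Its size rested on gland 2, with -0.29 without that gland and -1.90 with it as the only control.

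Per kilobase of exon, Ccng1 was the most abundant member in both groups, at a mean of 25.4 CPM per kb in tumours and 104 CPM per kb in glands. In tumours the next levels were Bax at 10.2, Mdm2 at 8.90, Trp53 at 6.24 and Phlda3 at 6.21 CPM per kb. In glands they were Phlda3 at 12.3, Mdm2 at 5.92, Trp53 at 2.87 and Fas at 2.56 CPM per kb, with Bax at 1.92. Lengths are those of all annotated exons joined, so these levels are a coarse order and neighbours in it were not tested.

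Which members differed in the adenosquamous carcinoma, the only type with more than 1 library, was tested over 2 tumours and 3 glands. Of the 9 tested members, 0 passed in edgeR over 14708 genes, of which 10.4% passed, 5.01% as higher and 5.36% as lower. DESeq2 called 3 of them and 3562 of the 14708 genes, and limma-voom 1 of them and 1582 of the genes. With no adjustment, 3 of the 9 had a p under 0.05 (Bax and Zmat3 higher, Ccng1 lower), against 29.9% of all genes, 14.7% higher and 15.2% lower. Both adenosquamous tumours lay above every gland for 5 of the 9 (Trp53, Mdm2, Bax, Bbc3 and Zmat3), against 27.7% of all genes, and below every gland for 1, Ccng1, against 23.4%. Mdm2 of tumour 1a was only just above gland 3, at 34.6 CPM against 34.3 CPM. Bbc3 was in the test through the tumours, so its place among the 5 adds nothing to its levels. Bax averaged 16.6 ± 5.56 CPM in adenosquamous tumours (SD, n = 2) and 3.02 ± 2.00 CPM in glands (SD, n = 3; log2 2.30, SE 0.63, adjusted p = 0.0715). Zmat3 averaged 33.7 ± 19.7 CPM in adenosquamous tumours and 10.9 ± 1.86 CPM in glands (log2 1.55, SE 0.42, adjusted p = 0.0709). The log2 fold change of Ccng1 was -2.28 (SE 0.75, adjusted p = 0.105).

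The spindle cell and papillary tumours are 1 library each and were set against the range of the 3 glands without a test. In the spindle cell tumour, Bax and Zmat3 were at least 2-fold above the highest gland and Fas at least 2-fold below the lowest, that is 2 and 1 of the 9 tested members. In that tumour 10.2% of all genes were as far above and 11.8% as far below. In the papillary tumour, Bax, Bbc3 and Zmat3 were as far above and Fas as far below, 3 and 1 of the 9 members, against 14.1% and 15.6% of all genes. Of these, Bbc3 was among the tested genes only through the tumours, so its place in the count adds nothing to its level. The 4 papillary members became 5 under other scalings or without gland 1 and 6 without gland 2, and the 3 spindle cell members became 6 without gland 2. A gland left out narrows the range that any gene has to pass. The shares of all genes at these settings are not given here, so these rises are not a result about the members. Whether the 3 tumour types differ was tested in 1 edgeR fit of 4 groups, in which the lone tumours are assumed to vary like the glands and the adenosquamous pair. Adjusted, 0 of the 9 members passed, against 0.495% of all genes, and unadjusted, 0 had a p under 0.05, against 19.7% of all genes. DESeq2 and limma-voom called 0 members as well. The smallest p was that of Fas (unadjusted p = 0.0836, adjusted p = 0.329 in edgeR).

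Among 16 regulators of p53, 15 were tested in the tumour comparison, of which 2 rose, 0 fell and 13 did not pass, with a median log2 fold change of 0.42 (0.12 over all genes). Over all genes 8.47% passed, 3.9% as higher. In DESeq2 3 of the regulators rose and 1 fell, while 1807 of 14149 genes rose and 1596 fell. Ppp1r13l, which encodes the p53 inhibitor iASPP, was at 12.5, 18.1, 13.5 and 12.7 CPM in tumours 1a, 1b, 3 and 4 and at 4.95, 2.14 and 2.89 CPM in glands 1, 2 and 3 (log2 2.14, SE 0.39, adjusted p = 0.0223 in edgeR). Chek1, a checkpoint kinase of S phase, averaged 6.25 ± 3.61 CPM in tumours (SD, n = 4) and 0.473 ± 0.413 CPM in glands (SD, n = 3). So low in glands, Chek1 entered the test through the tumours, where it was high. Its call thus adds nothing to these levels and no fitted fold is given. With at least 10 counts required in every library, 12 regulators were tested, of which 1 rose and 0 fell. When gland 2, gland 3 or tumour 1b was left out, 0 regulators passed in edgeR (in each case 3 had an unadjusted p below 0.05). Over all genes 3277 of 14717, 3087 of 14835 and 3671 of 15406 had one in turn. Leaving out gland 1, tumour 1a or tumour 3 left 1, and leaving out tumour 4 gave 3.

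Cdkn2a, the locus of p16INK4a and of the Mdm2 inhibitor p19ARF, was highest in the adenosquamous tumours. It had 278 and 45 counts (23.7 and 6.12 CPM) in tumours 1a and 1b, 5 counts in the spindle cell tumour (0.493 CPM) and 5 in the papillary tumour (0.174 CPM), against 0 in every gland. It was kept out of the tumour comparison by the filter on low counts. Over the adenosquamous tumours it was at 16.9 CPM, 314-fold the floor of 3 counts over the glands. The ratio was 439-fold for tumour 1a alone and 114-fold for tumour 1b alone. These ratios leave out the counting error of the tumours. With no count in the glands, Cdkn2a entered the adenosquamous test only through the tumours where it was high, so its call (adjusted p = 0.0272 in edgeR) adds nothing to these counts and no fitted fold is given. The tables do not separate its transcripts, so the 2 proteins cannot be told apart. Of the 16 regulators tested in the adenosquamous comparison, 3 passed as higher and 0 as lower. These were Cdkn2a, Ppp1r13l (adjusted p = 0.0466 in edgeR) and the p53 relative Trp73, the last named after its value was seen. Trp73 averaged 4.13 CPM in these tumours and 0.116 CPM in glands. Like Cdkn2a, Trp73 entered the test through the tumours, so its call adds nothing to these levels. With at least 10 counts required in every library, 12 regulators were tested, of which 2 rose and 0 fell. Over all genes 10.4% passed in this comparison, 5.01% as higher. When gland 3, tumour 1a or tumour 1b was left out, 0 of the 16 passed in edgeR (unadjusted p was below 0.05 for 6, 3 and 6), and 1 was left without gland 1 or gland 2. With no library left out, unadjusted p was below 0.05 for 8 of the 16, against 29.9% of all genes. In DESeq2 5 rose, as did 1751 of 14708 genes.

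Of 24 other p53 targets, all tested, 2 rose, 1 fell and 21 did not pass, against 8.47% of all genes that passed. Their median log2 fold change was 0.98, against 0.12 over all genes. The risers, Gtse1 and Psrc1, encode proteins of the mitotic microtubules. Gtse1 was at 6.27 CPM on average in tumours and 0.137 CPM in glands. So low in glands, both genes entered the test through the tumours, where they were high. Their calls thus add nothing to their levels and no fitted folds are given. Both moved in the direction of the cell cycle genes described below, and the part of cell division in them was not tested. Of the 15 targets with at least 10 counts in every library, which leaves out both, 0 rose and 1 fell. Psrc1 was at 0.936 CPM in tumour 1a and 7.59 to 23.8 CPM in the others, against 0 to 0.474 CPM in glands. Rrm2b, which supplies nucleotides for DNA repair, fell by 1.3 on the log2 scale (SE 0.29, adjusted p = 0.0379), to 6.26 to 11.1 CPM in tumours, against 20.5 to 27.5 CPM in glands. Cdkn1a, the p21 gene and the classical arrest target, was at 8.17, 36.9, 4.53 and 28.7 CPM in tumours 1a, 1b, 3 and 4 and at 4.24, 2.58 and 10.2 CPM in glands 1, 2 and 3. Tumours 1b and 4 were above all glands and tumours 1a and 3 within their range, and the difference did not pass (log2 1.76, SE 0.84, adjusted p = 0.21). Among the same 24 genes 3 rose and 0 fell in the adenosquamous tumours. Of all genes 10.4% passed there, 5.01% as higher and 5.36% as lower. The 3 were Perp (log2 3.87, adjusted p = 0.0183), a cell adhesion and apoptosis gene, Apaf1 (log2 1.84, adjusted p = 0.0301), the core of the apoptosome, and Ptprv. All 3 were named after their values were seen. Ptprv averaged 17 CPM in these tumours and 1.16 CPM in glands. So low in glands, Ptprv entered the test through the tumours. Its call thus adds nothing to these levels and no fitted fold is given. Over all tumours unadjusted p was below 0.05 for 10 of the 24, 8 higher and 2 lower, against 28.9% of all genes. When gland 1, gland 3, tumour 1b or tumour 3 was left out, 0 of the 24 passed in edgeR. Unadjusted p was then below 0.05 for 8, 9, 9 and 13 of them. Over all genes it was so for 3590 of 16935, 3087 of 14835, 3671 of 15406 and 3998 of 15519 in turn. With gland 2 or tumour 1a left out, 1 of the 24 passed. In DESeq2 7 of the 24 rose and 2 fell, while 1807 of 14149 genes rose and 1596 fell. Over the adenosquamous tumours 0 passed in edgeR when gland 3, tumour 1a or tumour 1b was left out (unadjusted p was below 0.05 for 12, 12 and 6). With no library left out, unadjusted p was below 0.05 there for 13 of the 24, against 29.9% of all genes.

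Of 18 genes of mitochondrial apoptosis, 16 were tested. Of these, 0 rose, 1 fell and 15 did not pass, while 8.47% of all genes passed, 4.57% as lower. Their median log2 fold change was 0.63, against 0.12 over all genes. The 1 that fell was Cycs, which encodes cytochrome c, the electron carrier that Bax releases from mitochondria. It was at 34.6, 15.6, 21.6 and 39.3 CPM in tumours 1a, 1b, 3 and 4 and at 141, 198 and 200 CPM in glands 1, 2 and 3 (log2 -2.69, SE 0.37, adjusted p = 0.0109 in edgeR). Every tumour was thus higher than every gland in Bax and lower in Cycs. The call on Cycs was lost without gland 3. Genes of mitochondrial DNA also took a smaller share of counts in every tumour than in every gland, and the part of this in the level of Cycs was not tested. At unadjusted p under 0.05 there were 7 of the 16, 5 higher and 2 lower. Of all genes 28.9% were under it, 15.8% higher and 13.1% lower. In DESeq2 5 of the 16 rose and 1 fell, while 1807 of 14149 genes rose and 1596 fell. Over the adenosquamous tumours 1 of the list rose and 1 fell, against 5.01% and 5.36% of all genes. The 1 that fell was Cycs (log2 -2.89, adjusted p = 0.0248). The riser was Bok, a relative of Bax named after its value was seen. Bok was at 4.99 CPM on average in these tumours and 0.358 CPM in glands. It entered the test through the tumours, so its call adds nothing to these levels. No gene of the list rose there when any 1 of the 5 libraries was left out, and none fell without gland 1, gland 3, tumour 1a or tumour 1b (unadjusted p was below 0.05 for 7, 3, 4 and 3). With no library left out, unadjusted p was below 0.05 there for 5 of the 16, against 29.9% of all genes. Of 8 partners of the death receptors, 6 were tested and 0 passed in edgeR, against 8.47% of all genes. An unadjusted p below 0.05 was found for 2 of the 6, against 28.9% of all genes. In DESeq2 1 of the 6 fell, as did 1596 of 14149 genes. Their median log2 fold change was 0.08, against 0.12 over all genes. The smallest p was that of Cflar, an inhibitor of caspase-8 (log2 -0.77, SE 0.27, adjusted p = 0.115).

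Cell cycle genes that p53 is known to hold down through p21 were higher in tumours. All 12 of the list passed as higher, against 3.9% of all genes. Their median log2 fold change was 4.55, against 0.12 over all genes. Only 1 of the 12 had at least 10 counts in every library, so most entered the test through the tumours, where they were high, and the count is a description. Ccnb1, the gene of mitotic cyclin B1, was at 14.7 CPM on average in tumours and 0.216 CPM in glands. Cks2, a small partner of cyclin-dependent kinases, was at 8.42 CPM in tumours and 0.672 CPM in glands. Both were among those that entered through the tumours, so their calls add nothing to these levels and no fitted fold is given for them. Over the adenosquamous tumours 10 of the 12 rose, against 5.01% of all genes. Over all tumours 1 passed without gland 3 and 9 to 11 without any other 1 library, 0 passed in edgeR with gland 2 as the sole control (12 had an unadjusted p below 0.05), and over the adenosquamous tumours 0 passed in edgeR when gland 3, tumour 1a or tumour 1b was left out (unadjusted p was below 0.05 for 12, 10 and 12). The share of dividing cells was not measured.

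**Figure D5:**
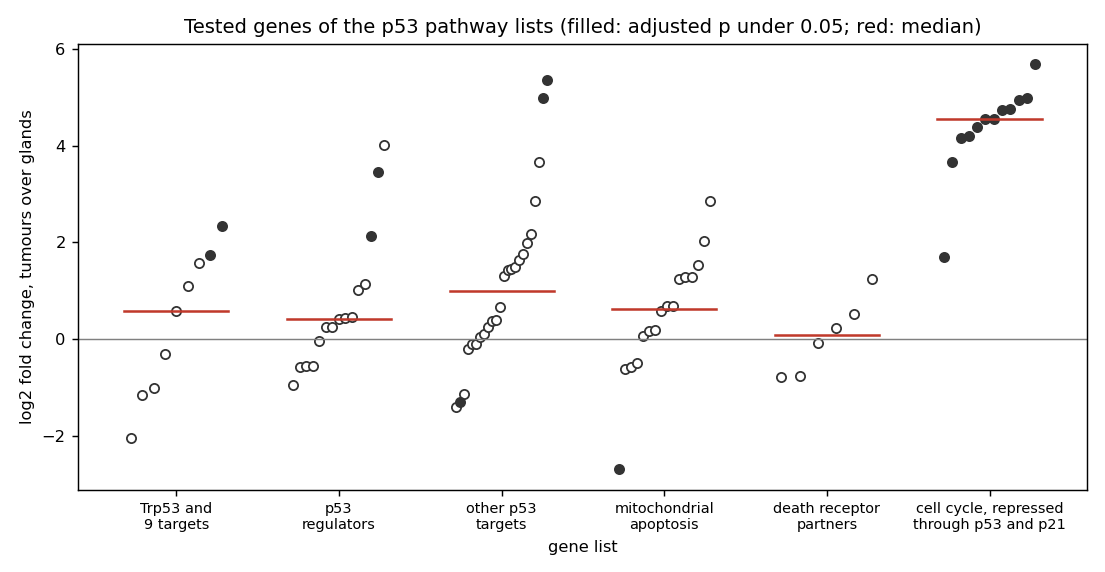
Log2 fold change of tumours over glands for every tested gene of 6 lists, ordered within each list, with filled points for adjusted p under 0.05 and a red line at the median. The cell cycle list stands at a median of 4.55 with all 12 genes filled, whereas the medians of the other lists lie between 0.08 and 0.98 with genes on both sides of 0.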

How the data were processed

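Per the labels' protocols, RNA of glands and tumour centres was made into TruSeq v2 libraries, which do not mark strand, and read as pairs. RSEM 1.3, STAR 2.5, limma and the build GRCm38 are listed in the submitters' processing notes. The value column is headed TPM, but its sums differ between libraries and 2.34% to 6.14% of values are not whole, so the deposited values were taken to be expected counts made by the authors, and were rounded. The sources used here do not name the filters or the annotation release.

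Genes were kept by filterByExpr (minimum count 10, minimum total 15) and tested two-sided by quasi-likelihood in edgeR 4.0.16 (R 4.3.3), with TMM factors of 0.551 to 1.605 and Benjamini-Hochberg adjustment. SE is the log2 fold change divided by the square root of F. Log2 CPM used a prior count of 2. Ratios of counts had 0.5 added to each count. Per-library intervals are exact 95% Poisson intervals and, like the floor of 3 counts, cover counting error only. Single tumours counted as beyond the glands at 1 log2 unit past the nearest gland.

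The members and gene lists were chosen with earlier results of these data known. Beside the members, the text names for each list the 2 genes with the smallest adjusted p in each direction (or, with none passing, the smallest p), and Cdkn1a, Mdm4, Cdkn2a and the 4 genes most correlated with Trp53. The genes Bcl2, Bcl2l1, Fasl and Gfral are given as partners of members. Positions came from GENCODE M21 on GRCm38. Alternatives were DESeq2 1.42.0, limma-voom (limma 3.58.1), other scalings, other filters, leaving out each library and gland 2 as the only control. No paired analysis was possible because the labels give glands and tumours no common pairing.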

Additional observations from a re-analysis of the deposited data

How the results depend on the processing

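Median-ratio and upper-quartile scaling and leaving out mitochondrial genes changed no edgeR call and no direction of a tested member, but each took the papillary members at least 2-fold beyond the glands to 5, against 4 with TMM scaling. Of 133 values of members under the alternatives in the comparison of tumours and glands, 110 kept their direction and side of the threshold, 17 lost a call, 3 gained one and 3 turned sign. In the adenosquamous comparison 101 of 115 were kept, 0 lost a call, 9 gained one and 5 turned sign. Members that passed in the tumour comparison numbered 2, with 4 in DESeq2, 0 without a filter (5 at unadjusted p under 0.05), 1 with at least 10 counts in every library, 0 when gland 2 alone was the control (2 had an unadjusted p below 0.05) and 0 to 1 when 1 library was left out. Without a filter the adjusted p was 0.0669 for Bax and 0.0544 for Zmat3. With at least 10 counts in every library, Bax and Bbc3 were not tested in either comparison, since gland 1 held 2 counts and 1 count of them. In the adenosquamous comparison 0 members passed in edgeR (3 at unadjusted p under 0.05), with 3 in DESeq2, 1 in limma-voom, 3 without a filter, 1 with at least 10 counts in every library and 0 to 1 when 1 library was left out; the 1 was Ccng1 without gland 2 (log2 -2.70, adjusted p = 0.0375).

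Eda2r turned sign in the tumour comparison in limma-voom (0.50) and with gland 2 as the only control (1.89), and ranged from -0.81 to 0.58 when 1 library was left out. Over the adenosquamous tumours it was 0.83 in limma-voom, 0.04 with at least 10 counts in every library and -0.66 to 0.81 with 1 library left out, and Phlda3 ranged from -0.81 to 0.18. The cause was not tested. The count of spindle cell members beyond the glands was 3 to 6 when 1 gland was left out, 6 without gland 2, and that of the papillary tumour was 4 to 6, 5 without gland 1 and 6 without gland 2. The shares of all genes beyond the glands at these settings and under the other scalings are not given here. These counts thus describe the settings and not the members.

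Over all genes, 1199 passed in the tumour comparison, with 3403 in DESeq2, 755 with at least 10 counts in every library, 0 in edgeR when gland 2 alone was the control (1655 had an unadjusted p below 0.05) and 97 to 1351 with 1 library left out. Over the adenosquamous tumours 1525 passed, with 3562 in DESeq2, 2508 without a filter and 0 to 1498 with 1 library left out (0 without gland 3 or tumour 1b, with 3471 and 2994 at unadjusted p under 0.05). Among tumour types 70 passed, with 2188 in DESeq2, 113 in limma-voom, 1494 without a filter, 509 with at least 10 counts in every library and 0 to 38 with 1 library left out (1752 to 3888 at unadjusted p under 0.05). Depth limits Bax and Bbc3 in gland 1, with 2 counts and 1 count at 0.354 CPM each, and Gdf15 in every library.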
